A study of Danio rerio with 54 samples.

Results

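The response of wildtype zebrafish embryos to diquat, given early in development, was read from 6 of the 54 libraries of the study: 3 pools of diquat-dosed embryos and 3 pools of water-dosed embryos of the AB strain. The members were taken by their labels, as every wildtype diquat and wildtype water library whose dosing began at 2 hours post fertilization (hpf). Each pool held 30 embryos. They were kept in diluted Danieau's medium, with 20 µM diquat or, in the group called water here as in the column names, without treatment, for 4 h. They recovered in fresh medium for 4 h and were then frozen, which places them near 10 hpf by that protocol, although the text on each sample dates the RNA to 2 hpf. The full study crossed water, diquat and 1 mM tert-butyl hydroperoxide (tBOOH) with 2 genotypes and with dosing from 2, 48 and 96 hpf, in 18 groups of 3 pools. The second genotype was an nfe2 knockout made with TALENs, with an 8-base deletion in exon 3. The sample text calls its background AB, while the protocol says that AB/TL hybrid embryos were injected, so genotype and background cannot be told apart. No source says which clutch gave which pool, so the p-values below measure the spread between pools. That spread was estimated from all 18 libraries of a stage, or from all 54 for the stage comparison.

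Diquat is a bipyridyl herbicide. Inside cells it takes up electrons and passes them to oxygen, a cycle that gives superoxide and then hydrogen peroxide, whereas tBOOH is an organic peroxide that oxidizes thiols directly. In vertebrates such oxidants are met mainly by Nrf2, a transcription factor of the CNC family to which nfe2 also belongs. Nrf2 is held back by Keap1 and, once free, switches on genes of glutathione synthesis, quinone reduction and heme breakdown. At the end of gastrulation the same embryos are laying down their body axis, in which retinoic acid, Wnt, Nodal and BMP signals set the position of each cell and the Hox genes record it.

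The deposited values are read counts divided by 1 size factor per library, called normalised counts here. The 6 libraries held 0.785 M to 0.842 M recovered reads, and 7783 of 31953 genes reached the minimum of 10 normalised counts in at least 3 libraries of the stage; the other 24170 were not tested. Genes of the tail bud and paraxial mesoderm were present in all 6, with ta at 52.8 to 71.7 and msgn1 at 71.8 to 96.7 normalised counts. The muscle actin gene actc1b did not exceed 11.5 and the globin gene hbae3 was at 0. Not every late gene was low. The late organ gene fabp2 read 36.3 to 56.7, against a mean of 3.63 in wildtype water at 48 hpf, and try read 43.99 to 65.3. The first principal component, 33.5% of the variance, put the diquat libraries at 16.5 to 20.1 and the water libraries at -19.1 to -17.5. The targeted gene nfe2 lay at 1.6 to 7.73 in wildtype diquat, 6.45 to 19.9 in wildtype water and 8.17 to 34.4 in the knockout libraries dosed from 2 hpf with diquat or water, so transcript level does not check the knockout label. The library kit keeps strand, but how the counting treated it is not given in the sources used here. The light-strand gene mt-nd6 ranked 3 of the 13 mitochondrial mRNAs in each of the 6 libraries, above the median of the other 12, and whether values hold sense or opposite-strand reads was not tested. By the GRCz12tu annotation 27 of the 52 called genes with a match by symbol, 51.9%, overlap another gene. This compares with 38.9% of 6272 matched tested genes, so reads of a neighbour may be mixed in.

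Diquat changed few genes. At a Benjamini-Hochberg adjusted p under 0.05 in limma, 75 of 7783 genes were called, 0.964% of those tested. Of these, 28 rose (0.36%) and 47 fell (0.604%). By name, the rises included genes of retinoic acid handling, a Hox gene, a receptor gene and a p53 target. The falls included neutral amino acid transporters, a Nodal cofactor and a Wnt-responsive factor. Only 15 of the 75 calls belong to any gene list used below. Several of the genes behind these names lost their call with 1 library left out, as given below. Among the calls 21 rises and 37 falls exceeded 2-fold, and the smallest called changes were 0.66 and -0.74 on the log2(value + 1) scale. With 3 pools a group smaller changes may go uncalled, so these sizes do not describe all effects of diquat. In all 75 the diquat and water libraries did not overlap, which was also true of 1542 of all tested genes (19.8%). The same pools chose the calls, so this separation adds no support. Over all tested genes the median log2 change was -0.01, with 3795 (48.8%) higher. At an unadjusted p under 0.05, 361 genes were higher and 411 lower. In bulk pools fewer cells of a type and less RNA per cell cannot be told apart. Leaving out 1 library left 30 to 57 calls, and the count fell by over 1.5 times without diquat pool 2 (48), diquat pool 3 (35), water pool 1 (30), water pool 2 (38) or water pool 3 (41). Fitting only the compared groups gave 219 calls (51.1% rises) and library quality weights 268 (47.0% rises), against 37.3% rises among the 75. Of the 75 genes, 23 stayed called in every one of the 6 reduced fits in which they were tested.

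**Figure D1:**
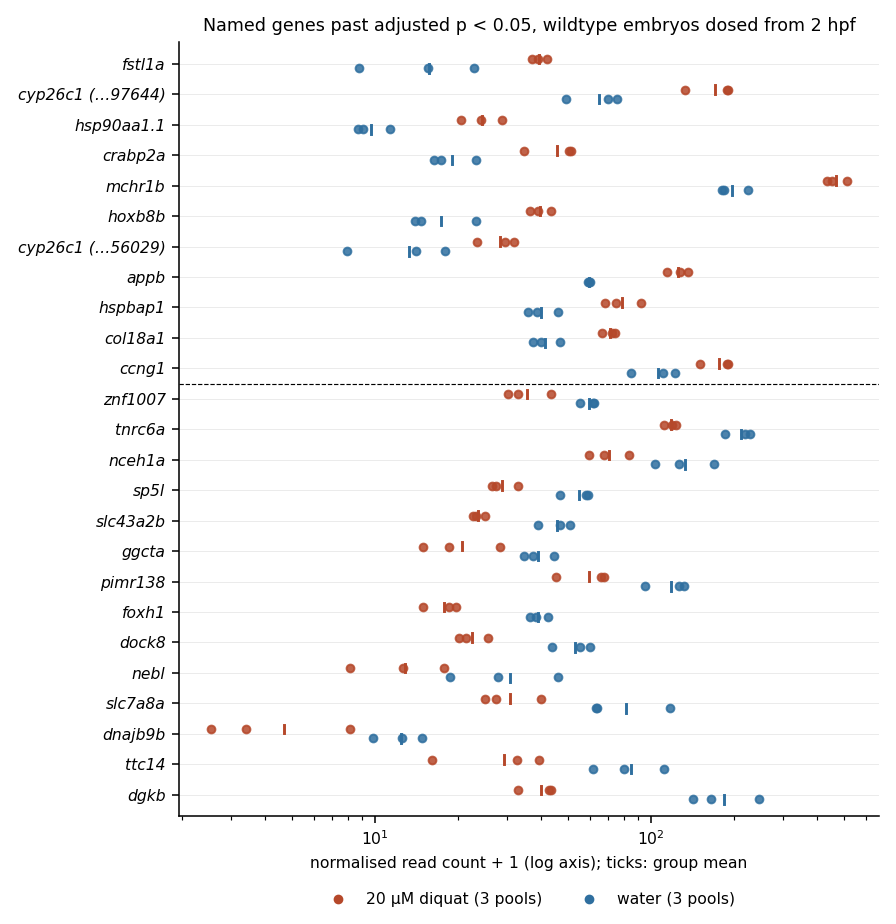
Normalised read count plus 1 on a log axis for the 25 named called genes, 1 point per pool of 30 embryos and a tick at each group mean, with rises above the dashed line and falls below it. Diquat points (red) and water points (blue) do not overlap in any of the 25. The choice of genes favours this, since separate groups were part of the naming rule for the largest changes.

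Retinoic acid is made from retinal by Aldh1a2, carried in the cytoplasm by Crabp proteins and destroyed by Cyp26 enzymes. The gene lists here were chosen with earlier results of these data known. Of 23 tested genes of this pathway 3 rose and none fell, against 0.36% and 0.604% of all tested genes. Both annotated copies of cyp26c1, which encodes a retinoic acid-degrading cytochrome P450, were among the 3 rises. The copy ENSDARG00000097644 read 189, 131 and 187 normalised counts in the 3 diquat pools and 74.3, 68.6 and 48.4 in the 3 water pools. Every diquat pool lay above every water pool, by a mean ratio of 2.65 (log2 change 1.40 ± 0.33 SE, adjusted p = 0.0303, limma). The second copy, ENSDARG00000056029, read 31.0, 22.4 and 28.6 with diquat and 13.0, 16.9 and 6.91 in water. It too was separated between the groups (1.16 ± 0.28, adjusted p = 0.0392). Each copy lost its call in 5 of the 6 fits with 1 library left out, with adjusted p up to 0.192 for the first and 0.313 for the second. With DESeq2 neither copy was called (adjusted p = 0.117 and 0.0903), and the second was also lost with edgeR and without the filter. The 2 identifiers share a symbol, and the gene of that symbol in the GRCz12tu annotation overlaps a long noncoding RNA gene. Because the match was by symbol, it does not show which identifier overlaps. Reads could be split or mixed between the 2 identifiers.

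The smallest adjusted p of the pathway was that of crabp2a, which encodes a cellular retinoic acid-binding protein. It read 33.7, 50.4 and 49.5 with diquat and 22.2, 15.3 and 16.4 in water. The lowest diquat pool exceeded the highest water pool (log2 change 1.26 ± 0.21, adjusted p = 0.000902, limma), and the call held in all 6 fits with a library left out. Its paralog crabp2b went the other way in value, at 116, 136 and 104 against 172, 202 and 174, without passing the test (-0.62, adjusted p = 0.112). The related retinoic acid hydroxylase gene cyp26a1 read 90.3, 84.0 and 77.3 against 125, 111 and 134 (-0.55, adjusted p = 0.172). Neither pair of groups overlapped. The median log2 change of the 23 genes was -0.14, with 9 higher, so the 3 rises were not a shift of the whole list. The synthesis gene aldh1a2, at 20.4, 26.4 and 14.7 against 29.1, 21.8 and 20.7, overlapped between groups.

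Among 19 tested Hox genes 1 rose, against 0.36% of all tested genes. This was hoxb8b, a trunk-level member of the B cluster. It read 35.4, 42.4 and 37.9 normalised counts with diquat and 22.2, 13.7 and 13.0 in water. All diquat pools were higher (log2 change 1.23 ± 0.24, adjusted p = 0.00668, limma), although the call was lost without water pool 2 or 3, where adjusted p reached 0.0616. The other 18 were not called, yet 14 of the 19 had a higher mean with diquat and the list median was 0.41, against -0.01 over all genes. In 9 of the 19 all diquat pools lay above all water pools, against 753 of all tested genes (9.67%), and in 1 the order was the opposite. Chosen after their values were seen, the posterior genes hoxd10a (285, 238 and 224 against 148, 154 and 139; log2 0.75, adjusted p = 0.077) and hoxb10a (105, 132 and 114 against 77.4, 65.3 and 63; log2 0.76) had separate groups. The anterior gene hoxb1b was at 66.4, 71.2 and 78.9 against 77.4, 87.9 and 85.5 (-0.21). Whether the change followed position along the body axis over the 19 genes was not tested. The sums over the list ran from 1326 to 1373 with diquat and from 996 to 1095 in water.

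Among the named rises the smallest adjusted p was that of mchr1b, a receptor gene for melanin-concentrating hormone. It read 513, 450 and 432 normalised counts with diquat against 182, 180 and 224 in water. The diquat pools stood at about the same height and well clear of the water pools (ratio 2.38, log2 change 1.25 ± 0.18, adjusted p = 0.000186, limma). The gene appb, a paralog of the amyloid precursor protein gene with the identifier ENSDARG00000097336, read 126, 135 and 113 against 59.0, 58.1 and 58.7. Its water pools were nearly equal (1.07 ± 0.19, adjusted p = 0.00152). Both calls held in every fit with a library left out.

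The largest rise among the named genes was that of fstl1a, which encodes a secreted follistatin-like glycoprotein. It read 38.1, 36.0 and 41.0 with diquat and 14.6, 21.8 and 7.77 in water. The groups were separate, and the water pools varied more than the diquat pools (log2 change 1.43 ± 0.27, adjusted p = 0.00388, limma). Without water pool 3 the adjusted p was 0.0599. It was the only called gene of 26 tested genes of dorsoventral patterning, whose median was -0.15. Of all tested genes 0.36% rose. The basement membrane collagen gene col18a1 read 65.5, 71.2 and 72.7 against 46.0, 36.3 and 38.9 (0.78 ± 0.19, adjusted p = 0.0384), separate between groups, but its call was lost on leaving out any 1 library.

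Chaperone and p53 genes gave 1 rise each, and hspbap1, whose product binds the small heat shock protein Hspb1, gave another. For hsp90aa1.1, a cytosolic Hsp90 needed for myosin folding in zebrafish muscle, the values were 19.5, 23.2 and 27.8 with diquat and 7.66, 8.07 and 10.4 in water. For hspbap1 they were 67.3, 73.6 and 91.3 against 37.5, 34.7 and 44.9. In both genes every diquat pool was above every water pool (log2 changes 1.33 ± 0.28 and 0.97 ± 0.20, adjusted p = 0.0117 for each, limma). Both calls were lost without diquat pool 3, water pool 1 or water pool 2, with adjusted p up to 0.101 and 0.119. The p53 target gene ccng1, cyclin G1, read 150, 187 and 190 against 110, 83.9 and 121. Its groups were separate too (0.75 ± 0.18, adjusted p = 0.0318), but the call was lost in 4 of the 6 reduced fits, with adjusted p up to 0.27.

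The deepest named fall was in dgkb, the diacylglycerol kinase beta gene, whose enzyme turns a lipid second messenger into phosphatidic acid. It read 42.5, 32.0 and 41.8 normalised counts with diquat and 141, 164 and 245 in water. The water mean was 4.73 times the diquat mean, and no pool came near the other group (log2 change -2.18 ± 0.32, adjusted p = 0.000232, limma). The tetratricopeptide repeat gene ttc14 read 15.06, 38.4 and 31.7 against 60.5, 79.1 and 111. Here diquat pool 1 was the lowest of all 6 (-1.58 ± 0.26, adjusted p = 0.000728). Values for dock8, an activator of the small GTPase Cdc42, were 20.4, 19.2 and 24.8 against 59.0, 42.8 and 54.4. Its groups were tight and separate (-1.24 ± 0.22, adjusted p = 0.00159). These 3 calls held in every fit with a library left out.

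Among regulators of RNA and protein output, tnrc6a, which encodes the GW182 scaffold of microRNA silencing, read 111, 122 and 118 with diquat against 185, 219 and 226 in water. All diquat pools were lower and close together (log2 change -0.83 ± 0.16, adjusted p = 0.00347, limma), and no omission of a library ended the call. The pim kinase family member pimr138 fell from 94.2, 131 and 125 in water to 44.3, 66.4 and 65.0 with diquat (-0.99 ± 0.19, adjusted p = 0.00527). Its call was lost without diquat pool 1 or water pool 2 (adjusted p up to 0.0608). The zinc finger gene znf1007 read 29.2, 32.0 and 42.5 against 60.5, 54.1 and 61.3 (-0.76 ± 0.18, adjusted p = 0.0318), and its call was lost in 5 of the 6 reduced fits.

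Of 22 tested amino acid transporter genes 2 fell and none rose, against 0.604% and 0.36% of all tested genes. Both that fell encode carriers of large neutral amino acids. The light chain gene slc7a8a read 39.0, 26.4 and 24.0 with diquat and 116, 62.9 and 62.2 in water. Water pool 1 stood far above the other two, but even the lowest water pool exceeded every diquat pool (log2 change -1.37 ± 0.29, adjusted p = 0.0140, limma). Without diquat pool 2, diquat pool 3 or water pool 1 the call was lost (adjusted p up to 0.175). Values for slc43a2b, a facilitative transporter gene, were 22.1, 24.0 and 21.7 against 46.0, 50.0 and 38 (-0.94 ± 0.22, adjusted p = 0.0316). The groups were separate, yet leaving out any 1 library lost the call. The heavy chain gene slc3a2b, chosen after its values were seen, read 24.8, 28.0 and 25.5 against 62.1, 34.7 and 42.3 (-0.77) without passing the test. Its paralog slc3a2a did not share this. Relative to the water mean its diquat pools lay at 0.42, -0.33 and -0.08 on the log2 scale, overlapping the water pools. The list median was -0.03 with 11 of 22 higher.

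Lipid and glutathione breakdown gave 1 fall each. The neutral cholesterol ester hydrolase gene nceh1a (ENSDARG00000097709) read 82.4, 66.4 and 58.8 with diquat against 102, 125 and 168 in water (log2 change -0.90 ± 0.19, adjusted p = 0.0136, limma). The gamma-glutamylcyclotransferase gene ggcta read 27.5, 17.6 and 13.9 against 33.7, 43.6 and 36.3 (-0.96 ± 0.24, adjusted p = 0.0444). Groups were separate in both, but the first call was lost in 4 and the second in 5 of the 6 reduced fits (adjusted p up to 0.149 and 0.315). The call of ggcta was also lost with a pseudocount of 5, without the filter, with edgeR (adjusted p = 0.0978) and with DESeq2 (adjusted p = 0.126).

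Developmental regulators were represented by 2 falls. The gene foxh1, whose protein partners Smads in Nodal signalling, read 18.6, 17.6 and 13.9 with diquat and 41.4, 35.5 and 37.1 in water. The groups were far apart (log2 change -1.15 ± 0.23, adjusted p = 0.00689, limma), with the call lost without diquat pool 3 or water pool 1 (adjusted p up to 0.0732). The Wnt-responsive transcription factor gene sp5l read 31.9, 26.4 and 25.5 against 46.0, 57.3 and 57.9 (-0.92 ± 0.22, adjusted p = 0.0329). Its groups were separate, and the call was lost on leaving out any 1 library. The ER cochaperone gene dnajb9b (ENSDARG00000016886) read 7.09, 2.40 and 1.55 against 11.5, 8.87 and 13.8 (-1.57 ± 0.28, adjusted p = 0.00205, limma). This was a separation at very low level, whose call was lost with edgeR (adjusted p = 0.105) and DESeq2 (adjusted p = 0.0903). Another identifier with the same symbol, ENSDARG00000097601, had more reads, at 59.3, 36.0 and 31.7 against 42.9, 44.4 and 39.7. Its groups overlapped (-0.05, adjusted p = 0.980, limma). Nebulette, nebl, read 7.09, 16.8 and 11.6 against 26.8, 17.7 and 44.9 (-1.24 ± 0.29, adjusted p = 0.0263). Its highest diquat pool lay just under its lowest water pool, and its call was lost in 4 of the 6 reduced fits (adjusted p up to 0.244).

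Of all 75 calls, 26 reached a mean of 50 in the higher group, 21 stayed under 20 and the median of that mean was 37.6. Clone names are carried by 25 of them. The smallest adjusted p of all belonged to one of these, zgc:113363, chosen here after its values were seen. It read 10.6, 8.0 and 10.1 normalised counts with diquat and 55.9, 55.7 and 68.2 in water. Both groups were tight (log2 change -2.53 ± 0.18, adjusted p = 2.37e-10, limma), and the water mean was 6.27 times the diquat mean. Also chosen after their values were seen, zgc:65851 read 11.5, 12.8 and 10.1 against 44.4, 62.1 and 46.6 (-2.05), and the sterol carrier gene scp2b read 15.06, 13.6 and 15.5 against 46.0, 45.2 and 42.3 (-1.54, adjusted p = 0.000119).

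Among further calls, also chosen after their values were seen, some had few or no reads in 1 group. The gene listed as RIMBP2 (1 to many) read 17.7, 16.8 and 17.0 with diquat but 0.766, 0 and 0 in water, a log2 change of 3.91 (adjusted p = 4.29e-08, limma). It was also at 0 in all 3 wildtype tBOOH pools, and its mean in the knockout was 25.7 with diquat and 30.7 in water. The clone gene FO834815.1 read 58.5, 68.0 and 72.7 with diquat against 15.3, 14.5 and 13.8 in water (2.11). For zfpm2a, a cofactor gene of GATA factors, the values were 15.9, 13.6 and 15.5 against 0.766, 1.61 and 5.18 (2.39). In the fall direction the palmitoyltransferase gene zdhhc13 read 2.66, 4.00 and 3.09 against 30.6, 24.2 and 29.4 (-2.78), and the anoctamin gene ano3 read 4.43, 2.40 and 3.87 against 23.7, 34.7 and 29.4 (-2.74). A smaller fall with reads in both groups was that of the dihydrofolate reductase gene dhfr, at 9.74, 18.4 and 13.9 against 32.9, 28.2 and 32.8 (-1.14, adjusted p = 0.0129), and its call was lost in 4 of the 6 reduced fits (adjusted p up to 0.114). The groups were separate in each of these genes.

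The classic oxidant-defence genes gave almost no calls, but only 0.964% of all tested genes were called. Lists this short would seldom hold a call at that share, so the absence of calls says little about them. None of 15 tested Nrf2-type genes was called, with 7 higher and a median of -0.03, and none of 6 CNC factors and partners, with a median of -0.37. None of 11 superoxide, peroxide and thioredoxin genes was called, and 5 were higher. The heme oxygenase gene hmox1a, a standard Nrf2 target, read 94.8, 78.4 and 94.4 normalised counts with diquat and 83.5, 71.0 and 115 in water. The groups overlapped (log2 change 0.01, adjusted p = 0.992, limma). In the knockout the same gene rose, at 308, 241 and 456 against 191, 146 and 217 (0.83, adjusted p = 0.0384), but the difference between the genotypes was not called (0.81, adjusted p = 0.206). The quinone reductase gene nqo1 read 28.3, 39.99 and 34.0 against 29.1, 42.0 and 38 (-0.09), and the ferritin gene fth1a read 240, 234 and 229 against 234, 270 and 276 (-0.15, adjusted p = 0.877). These groups overlapped too. At an unadjusted p under 0.05 in limma, 3 of the 15 Nrf2-type genes were higher and 1 lower, against 4.64% and 5.28% of all tested genes. The higher ones were gclc and zgc:158387, given in the next paragraph, and the low-level abcc2 (1.11). The lower one was mafga (-1.05). In wildtype tBOOH pools at like depth hmox1a read 155, 158 and 177, above every diquat and water pool.

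Glutathione genes leaned higher without passing the test. Of 17 tested, none rose and ggcta fell, against 0.36% and 0.604% of all tested genes. In the list 11 were higher and the median was 0.28. In 6 all diquat pools lay above all water pools, against 9.67% of all tested genes. The lean was not particular to wildtype diquat. The median was 0.22 in the knockout dosed with diquat from 2 hpf and 0.36 for wildtype tBOOH, which shares the water pools. The gene zgc:158387, named mgst3b (a microsomal glutathione transferase) in the reference table, read 100, 96.0 and 92.8 normalised counts against 66.7, 63.7 and 76.0 (log2 change 0.48, adjusted p = 0.354). The phospholipid peroxidase gene gpx4a read 85, 87.2 and 89.0 against 67.4, 68.6 and 78.6 (0.28). For gclc, the catalytic subunit of the first enzyme of glutathione synthesis, chosen after its values were seen, the values were 32.8, 30.4 and 32.5 against 18.4, 24.2 and 15.5 (0.71, adjusted p = 0.2). Groups were separate in all of these, but none passed the test after adjustment over all tested genes.

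The medians of the heat shock, ER and p53 lists were close to the -0.01 of all tested genes. Each list held 1 call, against 0.36% rising and 0.604% falling over all tested genes. Of 28 heat shock and cochaperone genes only hsp90aa1.1 rose. In that list 10 were higher, against 48.8% of all tested genes, and the median was -0.08. The abundant hspa8 and hspb1 changed by 0.04 and -0.17 on the log2 scale and hsp90ab1 by 0.15, none called. Among 35 ER chaperone and unfolded protein genes only the dnajb9b identifier ENSDARG00000016886 fell. The median was 0.03, with canx at 0.05. Of 15 p53 pathway genes ccng1 rose, 8 were higher and the median was 0.04, and ccng2 stood at 0.24. None of 18 immediate early genes was called, against 0.964% of all tested genes.

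**Figure D2:**
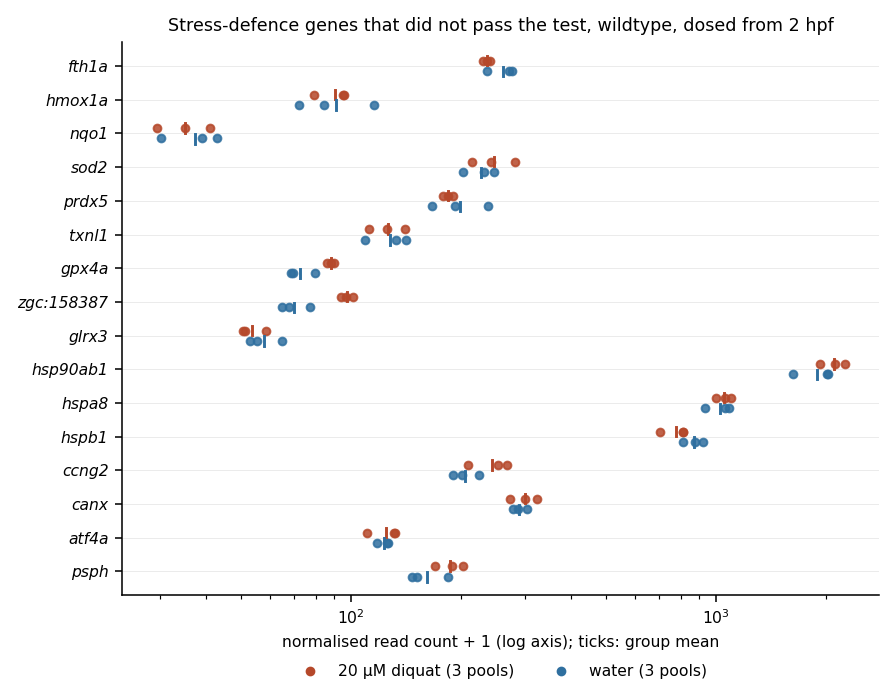
Normalised read count plus 1 on a log axis for 16 abundant stress-defence genes that did not pass the test, 1 point per pool and a tick at each group mean. Diquat (red) and water (blue) points of hmox1a, nqo1, hspa8 and atf4a overlap, while those of zgc:158387 and gpx4a are apart by small distances.

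A wide shift without a call was seen in genes of amino acid synthesis and the integrated stress response, the Atf4-driven programme that answers amino acid shortage and mitochondrial stress. This list too was chosen with earlier results of these data known, so its shift is only described here. None of its 26 tested genes was called. Yet 22 were higher with diquat, the median log2 change was 0.57 against -0.01 over all genes, and at an unadjusted p under 0.05 there were 11 higher and 1 lower, against 4.64% and 5.28% of all tested genes. In 12 of the 26 all diquat pools lay above all water pools, and in 1 below, against 9.67% and 10.1%. The serine synthesis gene psat1, chosen after its values were seen like the next 4, read 9.74, 24.8 and 25.5 normalised counts with diquat and 6.13, 6.45 and 6.05 in water. Diquat pool 1 was much nearer to water than pools 2 and 3 were (1.43, adjusted p = 0.0533, limma). The mitochondrial folate gene mthfd2 read 15.9, 21.6 and 17.0 against 6.13, 8.07 and 5.18 (1.37, adjusted p = 0.0547), and the transcription factor gene atf4b read 51.4, 76.0 and 71.9 against 39.1, 38.7 and 32.8 (0.82, adjusted p = 0.0581).

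The glutathione-degrading gene chac1, a known Atf4 target, read 32.8, 40.8 and 39.4 against 16.9, 25.0 and 7.77 (1.27, adjusted p = 0.062), and phgdh, the entry enzyme of serine synthesis, read 31.0, 40.8 and 41.8 against 19.9, 20.2 and 16.4 (0.96). Not every member shared this. The paralog atf4a read 110, 131 and 130 against 117, 124 and 125 (0.01), and the abundant psph read 202, 169 and 188 against 146, 151 and 183 (0.22). Summed over the list, the diquat pools reached 1171 to 1308 and the water pools 972 to 1027. The list median was -0.04 in the knockout dosed from 2 hpf and 0.08 for wildtype tBOOH, which shares the water pools.

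**Figure D3:**
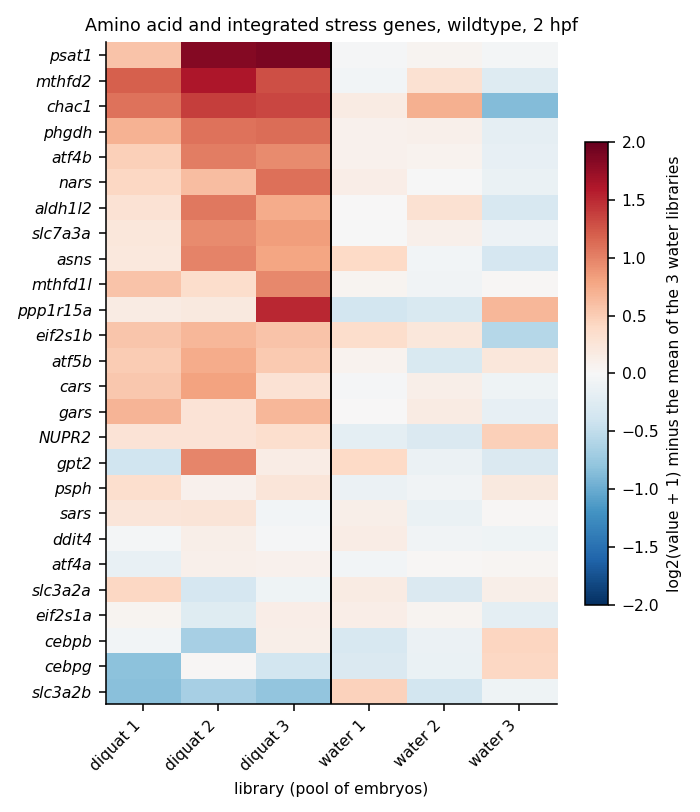
Heat map of log2(value + 1) minus the mean of the 3 water libraries for the 26 tested amino acid and integrated stress response genes, 1 column per pool, with red above and blue below the water mean. The upper genes, from psat1 to asns, are red in all 3 diquat pools and paler in diquat pool 1 than in pools 2 and 3, and slc3a2b at the bottom is blue in all 3.

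Cytosolic ribosomal protein genes, again a list chosen with earlier results known, showed a small, even shift. None of 79 tested was called, but 76 had a higher mean with diquat, the median was 0.27, and in 57 every diquat pool lay above every water pool, against 9.67% of all tested genes. At an unadjusted p under 0.05 there were 29 higher, against 4.64% of all, and none lower. Their summed normalised counts were 17490, 16535 and 16564 with diquat and 14256, 13713 and 14023 in water, so the sums were separate too. The list median was 0.01 in the knockout and 0.23 for wildtype tBOOH against the same water pools. Ribosome biogenesis genes stood at a median of 0.00 over 65 genes. Nuclear-encoded respiratory chain genes had a median of 0.21 over 64 and the mitochondrial mRNAs 0.20 over 13, with no call in either. The mitochondrial share of all counts ran from 3.21% to 4.44% over the 6 libraries.

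The Wnt and Nodal lists each had 1 call and a median below 0. Of 25 tested Wnt pathway genes only sp5l fell, against 0.604% of all tested genes, and its call was lost on leaving out any 1 library. In the list 6 were higher and the median was -0.25. In 10 all diquat pools lay below all water pools, against 789 of all genes (10.1%). Beta-catenin, ctnnb1, was one of these, at 467, 461 and 461 normalised counts against 545, 535 and 558. It and the next 3 genes were chosen after their values were seen. The secreted Wnt inhibitor gene frzb read 8.86, 8.0 and 8.51 against 16.1, 18.6 and 20.7 (-1.04), and sp5a read 16.8, 17.6 and 18.6 against 24.5, 26.6 and 35.4 (-0.66). Of 21 mesendoderm and Nodal genes only foxh1 fell, against the same 0.604%, 5 were higher and the median was -0.17. The Nodal coreceptor gene tdgf1 read 12.4, 14.4 and 17.8 against 26, 37.1 and 30.2 (-1.02, adjusted p = 0.23), with separate groups.

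No member was called among 58 cell cycle genes (median 0.03), 31 DNA repair genes, 28 somite and Notch genes, 31 neural plate genes, 30 surface epithelium markers, 16 yolk syncytial layer markers (median -0.29, 3 higher), 7 hatching gland markers (median -0.25, 1 higher) or 14 germ cell and maternal transcripts. Over all tested genes only 0.964% were called, so the absence of calls in lists of this size does not show an absence of change. Of 5 tested skeletal muscle genes nebl fell, against 0.604% of all tested genes. None of 7 tested late organ genes was called (median -0.10, 2 higher). The part of such tissue markers in the other changes was not tested.

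**Figure D4:**
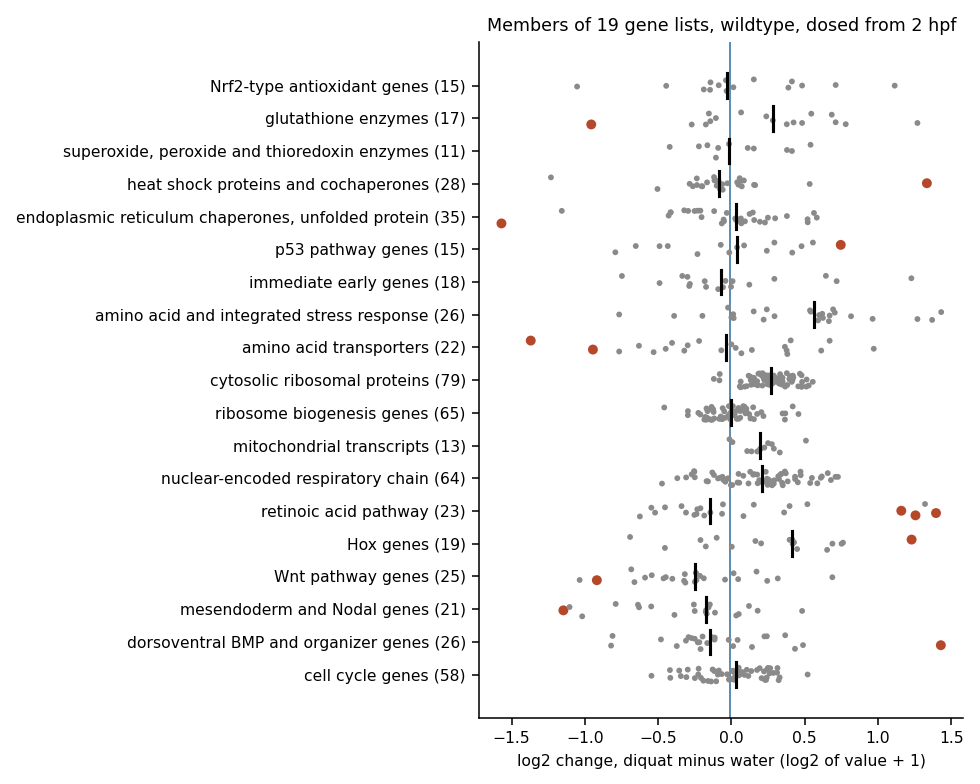
Log2 change of each tested member of 19 gene lists, diquat minus water, with the number of tested genes in parentheses, black ticks at list medians and a blue line at the median of all genes. Called genes are red; vertical scatter has no meaning. Ribosomal proteins lie almost all to the right of the line, and the amino acid list has the largest median of those drawn.

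The question of whether diquat and the organic peroxide act alike on wildtype embryos was put by testing tBOOH-dosed against diquat-dosed pools. There 446 of 7783 genes differed (5.73%), 250 higher with tBOOH (3.21%) and 196 higher with diquat (2.52%). The doses were 1 mM and 20 µM, so the comparison is of 2 exposures and not of equal doses. Of the 75 diquat genes, 15 rises and 38 falls passed, each with the sign opposite to its diquat change; since the diquat pools that chose these genes enter the test, that direction is fixed by the choice. The gene dock8 read 67.6, 75.7 and 77.3 normalised counts with tBOOH, above all diquat and water pools (tBOOH minus diquat 1.74, adjusted p = 1.55e-05, limma). With tBOOH ttc14 read 93.6, 98.4 and 94.2 (1.81, adjusted p = 7.98e-05) and dgkb 137, 122 and 200 (1.93, adjusted p = 0.000446). Both overlapped their water pools.

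Not all diquat genes separated the oxidants. The transporter gene slc7a8a read 39.1, 31.3 and 28.2 with tBOOH, overlapping its diquat pools (0.16, adjusted p = 0.812, limma). The difference was also not called for crabp2a (28.5, 28.7 and 37.0 with tBOOH; -0.48, adjusted p = 0.19), hoxb8b (26, 44.4 and 30.6; -0.22) or appb (93.6, 114 and 98.2; -0.29). In contrast mchr1b, at 177, 198 and 209, overlapped its water pools (-1.25, adjusted p = 8.69e-05), as did hsp90aa1.1 (-1.17, adjusted p = 0.0118). Among genes with a mean of at least 50 with diquat or water and no clone name, nr6a1a (ENSDARG00000101508, -2.47, adjusted p = 0.00849) and arhgap11a (ENSDARG00000098717, -1.82, adjusted p = 0.000282) were among those lowest with tBOOH. Neither was called for diquat against water (adjusted p = 0.984 and 0.970). Their tBOOH pools were uneven, at 38.3, 3.48 and 5.63 for nr6a1a and 103, 42.7 and 40.2 for arhgap11a. Both genes were also lower in knockout water than in wildtype water (-3.10 and -2.07, adjusted p = 0.000144 and 8.01e-06, limma). The count of 446 ran from 110 to 718 with 1 library left out, lowest without tBOOH pool 3 and highest without tBOOH pool 1, and it moved by over 1.5 times with each of the 6 omissions.

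The knockout pools dosed from 2 hpf give the same contrast in other libraries. They do not enter the wildtype log2 changes, but they share the estimate of spread and the low-value filter behind the 75 calls. There 291 genes were called (3.74%), with 3.11% rising and 0.63% falling. Of the 28 wildtype rises 17 were higher with diquat in the knockout and 11 lower, with none called and a median of 0.31. Of the 47 wildtype falls 38 were higher and 8 lower in the knockout, where dgkb had no read, with a median of 0.57, against 53.2% higher and a median of 0.03 over all genes. Thus the wildtype falls mostly had the opposite sign in the knockout, and 4 of them were called as rises there: dock8, nebl, pimr138 and alkbh2, the last an alkylated-DNA repair gene named after its values were seen. In the knockout dock8 read 81.7, 74.4 and 86.8 with diquat and 40.8, 29.2 and 38.6 in water, separate in the direction opposite to wildtype (1.15, adjusted p = 0.0337, limma). The values of pimr138 were 379, 329 and 393 against 174, 233 and 269 (0.72, adjusted p = 0.0394) and those of nebl 66.5, 72.6 and 70.24 against 33.8, 28.2 and 35.8 (1.08, adjusted p = 0.0394). For alkbh2 the means were 248 and 129, and in wildtype 26.1 and 46.7.

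The test of the genotype difference itself called 73 genes (0.938%), 61 higher (0.784%) and 12 lower (0.154%) in the knockout response. It was passed by 9 of the wildtype rises and 34 of the falls, all toward the opposite of the wildtype change, a direction that the choice of genes fixes. The largest differences were ranked among genes with a wildtype mean of at least 50 and no clone name. They included those of dock8 (knockout minus wildtype 2.39, adjusted p = 2.68e-05, limma), pimr138 (1.71, adjusted p = 0.00085) and cyp26c1 (ENSDARG00000097644, -1.90, adjusted p = 0.0393). In the knockout cyp26c1 read 36.2, 95.2 and 78.5 with diquat against 70.4, 187 and 59.7 in water, which overlap (-0.51). For dgkb the difference of 2.18 (adjusted p = 0.0133) reflects no knockout response, since it had no read in any of the 6 knockout libraries. The extracellular matrix gene emilin3a, not called in wildtype (61.1, 60.0 and 53.4 against 29.9, 34.7 and 25.9; 0.93, adjusted p = 0.124), also differed (-1.69, adjusted p = 0.0247). Rises with no called difference between genotypes include hoxb8b, with 64.2, 52.8 and 56.5 against 30.3, 26.4 and 49.6 in the knockout (0.74, adjusted p = 0.0786), and appb, with 215, 178 and 248 against 127, 123 and 171 (0.61, adjusted p = 0.0601). In both every knockout diquat pool was above every knockout water pool. The count of 73 ran from 35 to 151 with 1 library left out, and reached 151 without knockout water pool 3; it fell to 35 without wildtype water pool 3 or knockout diquat pool 3, to 40 without wildtype diquat pool 2, and to 48 and 43 without knockout water pools 1 and 2.

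Some of these genes also stood at very different levels in the 2 genotypes without diquat. The dnajb9b copy that fell in wildtype from a mean of 11.4 read 484, 620 and 809 in knockout water. The calcium channel gene cacna1ha (ENSDARG00000097913), chosen after its values were seen, read 6.20, 6.4 and 8.51 with diquat and 19.9, 19.4 and 40.6 in water in wildtype, against means of 327 and 216 in the knockout. To ask whether the calls were genes that differ between the lines in general, water libraries of 48 and 96 hpf, which chose none of them, were compared: at both ages 93 of 6177 genes differed (1.51%). Among the wildtype rises 2 of the 24 tested at both ages did so (zfpm2a and mchr1b), and among the falls 5 of 29 (ggcta, dnajb9b, ttc14, cacna1ha and si:ch211-204c5.6). Whether line differences have a part in the 2 hpf changes was not tested.

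**Figure D5:**
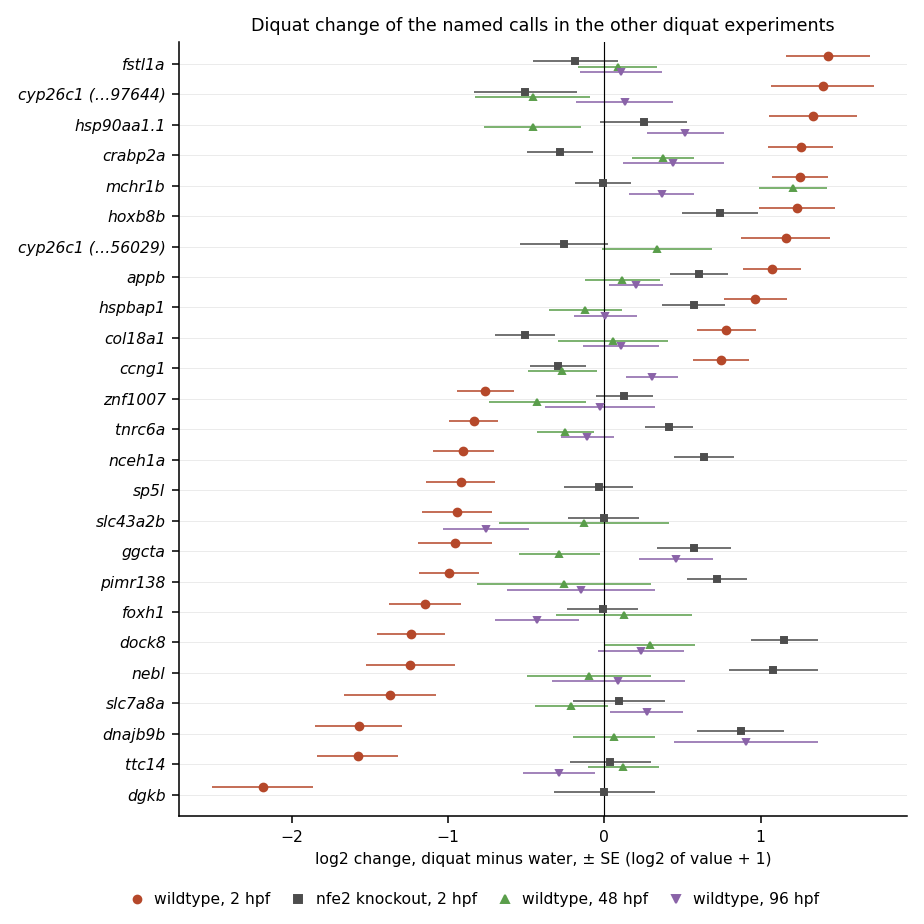
Log2 change, diquat minus water, with its SE for the 25 named called genes in wildtype from 2 hpf (circles), the nfe2 knockout from 2 hpf (squares) and wildtype from 48 and 96 hpf (triangles); a missing symbol means the gene was not tested there. The wildtype 2 hpf values chose these genes. Squares of dock8, nebl and pimr138 lie right of 0, the square of dgkb at 0 stands for libraries without a read, and the 48 hpf value of mchr1b lies beside that of 2 hpf.

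Diquat given to older wildtype embryos changed few genes: 4 of 9725 at 48 hpf (0.0411%, with 0.0103% rising and 0.0308% falling) and 28 of 11436 at 96 hpf (0.245%, with 0.114% rising and 0.131% falling). Of the 2 hpf calls tested there, 16 of 26 rises and 17 of 29 falls were higher with diquat at 48 hpf, and 16 of 24 rises and 18 of 35 falls at 96 hpf. Over all genes tested at those ages 54.5% and 49.5% were higher. The receptor gene mchr1b rose again at 48 hpf, from a mean of 112 to 262 (log2 change 1.21, adjusted p = 0.0483, limma), and stood at 0.37 at 96 hpf. Of the falls, zgc:113363 fell again at 48 hpf, from 139 to 52.0 (-1.36, adjusted p = 0.0483), and si:dkey-185e18.3, named after its values were seen, rose at 96 hpf.

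The 2 hpf response differed from the mean of the later responses for 49 of 13205 genes (0.371%, with 0.159% above and 0.212% below), among them 9 of the rises and 16 of the falls, all in the direction fixed by the choice. The falls of dock8 (2 hpf minus later -1.50, adjusted p = 0.00629, limma), ttc14 (-1.49, adjusted p = 0.00484) and slc7a8a (-1.40, adjusted p = 0.0320) were the largest among genes with a mean of at least 50 and no clone name. At 48 hpf ttc14 had means of 70.9 with diquat and 64.3 in water, and at 96 hpf 57.4 and 69.7, so no like fall was seen. The gene fam161a, which encodes a ciliary protein, read 46.9, 59.2 and 45.6 against 23.0, 14.5 and 10.4 at 2 hpf (1.66, adjusted p = 0.0712), separate but not called, and differed from later stages (2.39, adjusted p = 0.00482).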

How the data were processed

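Poly(A) RNA libraries were directional and read as 50 bp pairs, per the labels' protocols, with about 25 M reads a sample per the series' design text. The submitters' processing notes name FastQC 0.11.4, TopHat2 2.0.14, Bowtie2 2.2.5, SAMtools 0.1.19, HTSeq, DESeq2 1.10.1, R 3.2.3 and the build GRCz10. By the design text the authors aligned to GRCz10 with TopHat2 and normalised counts with DESeq2. The deposited table holds a signal per gene and library, whose values are whole multiples of 1 step per library, as counts divided by a size factor would be. Whole reads were recovered from it (within 0.01 read, 100% of values), a median of 3.24% of the stated depth in the 6 libraries; counting error limits low genes.

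From these values limma 3.58.1 (empirical Bayes, mean trend; R 4.3.3) was fitted to log2(value + 1) of the 18 libraries of the stage, so folds of low genes are understated. The stage comparison used all 54. Scripts were tested on simulated data. The members and the 46 lists (1776 of 1835 symbols matched) were chosen with earlier results of these data known. Named genes were the 12 largest rises and 15 largest falls among calls whose higher group averaged 50 or more, with separate groups and no clone name, then called list members, up to 4 abundant uncalled members of the redox, heat shock, p53, unfolded protein, amino acid and retinoic acid lists, and the 3 largest differences each way in other comparisons; some genes this rule takes are not reported here. Gene symbols are those of the deposited table; 3981 identifiers share one. Alternatives were a pseudocount of 5, no filter, TMM, the replicate block, only the compared groups, quality weights, edgeR 4.0.16, DESeq2 1.42.0 and leaving out each library.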

Additional observations from a re-analysis of the deposited data

Results flagged for a closer look

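For 15 of the named calls the diquat change differed between the genotypes by the interaction test in limma, and for 5 it differed between dosing from 2 hpf and later dosing. The wildtype 2 hpf libraries chose the genes and enter both tests, so the sign is fixed by that choice.

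Given as knockout minus wildtype log2 change, the genes that rose in wildtype were fstl1a (-1.61, adjusted p = 0.0305), cyp26c1 (ENSDARG00000097644; -1.90, adjusted p = 0.0393), crabp2a (-1.54, adjusted p = 0.00695), mchr1b (-1.26, adjusted p = 0.0104), col18a1 (-1.29, adjusted p = 0.0133) and ccng1 (-1.04, adjusted p = 0.0350). In the knockout none of these 6 was called with diquat.

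Among the genes that fell in wildtype the difference was 1.25 for tnrc6a (adjusted p = 0.00287), 1.54 for nceh1a (adjusted p = 0.00288), 1.53 for ggcta (adjusted p = 0.0174), 1.71 for pimr138 (adjusted p = 0.00085) and 2.39 for dock8 (adjusted p = 2.68e-05). It was 2.32 for nebl (adjusted p = 0.00253), 2.44 for dnajb9b (adjusted p = 0.00085), 1.61 for ttc14 (adjusted p = 0.0223) and 2.18 for dgkb (adjusted p = 0.0133), the last with no read in any knockout library.

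Given as the 2 hpf change minus the mean change at 48 and 96 hpf, the values were 1.33 for fstl1a (adjusted p = 0.0338), -1.50 for dock8 (adjusted p = 0.00629), -1.40 for slc7a8a (adjusted p = 0.0320), -2.05 for dnajb9b (adjusted p = 0.0343) and -1.49 for ttc14 (adjusted p = 0.00484).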

How the results depend on the processing

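Fitting only the compared groups gave 219 calls for diquat against water, 789 for tBOOH against diquat, 106 for the stage difference and 44 called list genes. Library quality weights gave 268, 1173, 151 and 53, and 194 for the genotype difference. The replicate block gave 121 for the genotype difference and, for diquat against water, 93; it ended no call of the 75. Same-numbered diquat and water libraries had residual correlations of -0.000315 to 0.0455 (mean 0.0182), none over 0.1. So few pools cannot show whether a shared number marks a shared clutch or batch, and no conclusion is drawn. With 1 library left out the counts ran from 30 to 57 (diquat), 35 to 151 (genotype), 110 to 718 (tBOOH), 34 to 51 (stage) and, for the list genes, whose main count was 15, from 5 to 13. The cause of these shifts was not tested. The share of rises among diquat calls was 37.3%, and 51.1%, 47.0%, 47.8% and 47.9% with only the compared groups, quality weights, edgeR (90 calls, 64 of the 75 among them) and DESeq2 (71 calls, 57 of the 75). No called direction reversed under any alternative run. Over the named genes 668 recomputed values kept their side of the threshold, 82 lost and 4 gained it, and 29 of uncalled genes changed sign. Of the list medians 489 moved by less and 63 by more than the spread between libraries. Beside the losses given above, znf1007 was lost without the filter and with DESeq2 (adjusted p = 0.101), and col18a1, ccng1, sp5l and slc43a2b without the filter. The edgeR and DESeq2 fits of the stage difference were not run.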
